A study of Homo sapiens with 6 samples.

Results

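The 10 genes described here handle iron in the cell, and their transcripts were followed in cells that the labels call Huh7, at normal and at lowered SRSF10. Huh7 is an established line from a human hepatocellular carcinoma. They were taken by symbol from a table of 60623 genes, and all 10 symbols were found once: TFRC, TFR2 and SLC11A2 for uptake, FTH1, FTL and NCOA4 for storage and its release, SLC40A1 and HAMP for export, and IREB2 and ACO1 for regulation. RNA-seq of 6 libraries was used, made from total RNA with a selection step that is not given in the sources used here. In 3 control libraries the genotype label is WT and the titles start with NC. In 3 knockdown libraries the genotype label is SRSF10 knockdown, and the series title names a short hairpin RNA. SRSF10 belongs to the SR proteins, which act in splicing. Neither group has a treatment in the labels. Whether control cells received a hairpin is also not stated there, so hairpin delivery and loss of SRSF10 cannot be told apart. The question addressed is how transcript levels depend on SRSF10. Replicates are not described as separate cultures, and p-values then reflect only the spread among these libraries, which may be technical.

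Cells take up iron bound to transferrin through the transferrin receptor, keep what they do not need inside shells of ferritin heavy and light chains, and release it through ferroportin. A pair of cytosolic proteins, encoded by ACO1 and IREB2, read the iron supply. When iron is scarce they bind a hairpin in certain mRNAs, the iron-responsive element. Bound in the 5′ untranslated region it blocks translation, as in both ferritin mRNAs and that of ferroportin, and bound in the 3′ untranslated region it protects the mRNA from decay, as in the transferrin receptor mRNA. In the liver, hepatocytes are the main iron store and secrete hepcidin, which removes ferroportin from cell surfaces. This control acts partly on protein and translation, which RNA-seq does not measure.

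Matches to the iron-responsive element in the members are shown because they place the binding site at opposite ends of the transcripts described below. A search of GENCODE 29 coding transcripts (GRCh38) used a bulged C, a stem of 5 base pairs with G-U pairs allowed, and the loop CAGTGN, on the transcript strand. It found 7 sites in 4 of the 10 genes. The motif follows the element known from these 4 mRNAs, so their matches were fixed in advance and test nothing. At least 1 site was found in 1.48% of 19684 protein-coding genes, counted without requiring the flanking bases printed here. A match is a description of the letters and not a measured binding site. SLC11A2, which makes some mRNAs with the element, had no match, so a gene without a match may still carry one. A gene with matches may likewise carry more elements than those found. Each line gives 29 bases as DNA, 5′ to 3′, with the loop in capitals.
FTH1, 5′ untranslated region, chr11:61967574-61967602, minus strand: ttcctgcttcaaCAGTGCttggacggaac
FTL, 5′ untranslated region, chr19:48965335-48965363, plus strand: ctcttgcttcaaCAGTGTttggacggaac
SLC40A1, 5′ untranslated region, chr2:189580661-189580689, minus strand: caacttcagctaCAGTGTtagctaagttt
TFRC, 3′ untranslated region, chr3:196050463-196050491, minus strand: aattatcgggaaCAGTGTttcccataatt
TFRC, 3′ untranslated region, chr3:196050510-196050538, minus strand: ctgtatcggagaCAGTGAtctccatatgt
TFRC, 3′ untranslated region, chr3:196050575-196050603, minus strand: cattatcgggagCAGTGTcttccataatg
TFRC, 3′ untranslated region, chr3:196050979-196051007, minus strand: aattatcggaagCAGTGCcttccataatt

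Levels were deposited as FPKM, fragments scaled by gene length and by the mapped total of each library. The length that fits the values is that of all annotated exons of a gene together. It can exceed that of the mRNA expressed, so levels compare only roughly between genes. The steps between low values put the depth at 12685000 to 14350000 fragments per library. SRSF10 measured 18.6, 19.5 and 19.8 FPKM in control libraries and 10.6, 10.8 and 10.6 in knockdown libraries, with no overlap between the groups. Genes with at least 1 FPKM in at least 3 libraries were tested with limma on log2(FPKM + 1), where a fold change understates the change of low genes, and the threshold was a Benjamini-Hochberg adjusted p of 0.05. Of 12191 genes tested, 25.2% passed in either direction, 12.6% were higher in the knockdown and 12.5% lower. Defining markers of the labelled liver origin were mostly near 0: of 11 hepatocyte markers both TTR and APOA2 had the value 0 throughout, ALB averaged 0.150 FPKM in control and 0.624 FPKM in knockdown libraries, and FGB and FGA alone averaged 1 FPKM or more. AFP, a marker of liver cancer cells, averaged 0.818 FPKM in control and 0.882 FPKM in knockdown libraries. The marker levels thus give little support to the cell line label, and the values below, those of HAMP and TFR2 among them, are those of cells labelled Huh7. The 7 macrophage markers summed to 0.345 to 0.397 FPKM in control and 0.367 to 0.689 FPKM in knockdown libraries, with PTPRC near 0. Summed levels of 5 endothelial markers (5.54 to 6.21, then 9.57 to 10.9 FPKM) and of 7 fibroblast markers (4.18 to 5.24, then 9.57 to 10.6 FPKM) were higher in the knockdown. PECAM1, KDR and LUM made up most of these sums, while CDH5, COL1A1 and COL1A2 were at or near 0, and their part in the results below was not tested. In bulk RNA, fewer cells of a type and less RNA per cell cannot be told apart.

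Of the 10 members 8 passed the filter and were tested. Of all tested genes 12.5% were called lower in the knockdown and 12.6% higher. Among the 8 members TFRC was lower, while FTL, SLC40A1, SLC11A2 and ACO1 were higher, so 1 fell and 4 rose. These changes were small: the median size of the log2 change of these 5 genes was 0.30, beside 0.31 for all genes that passed, and none of the 5 changed 2-fold. The median log2 fold change of the 8 tested members was 0.25, beside -0.01 for all tested genes. The values of the groups did not overlap for 6 of the 8, which was also true of 42.7% of all tested genes. FTH1, NCOA4 and IREB2 did not pass, and TFR2 and HAMP were too low to be tested.

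**Figure D1:**
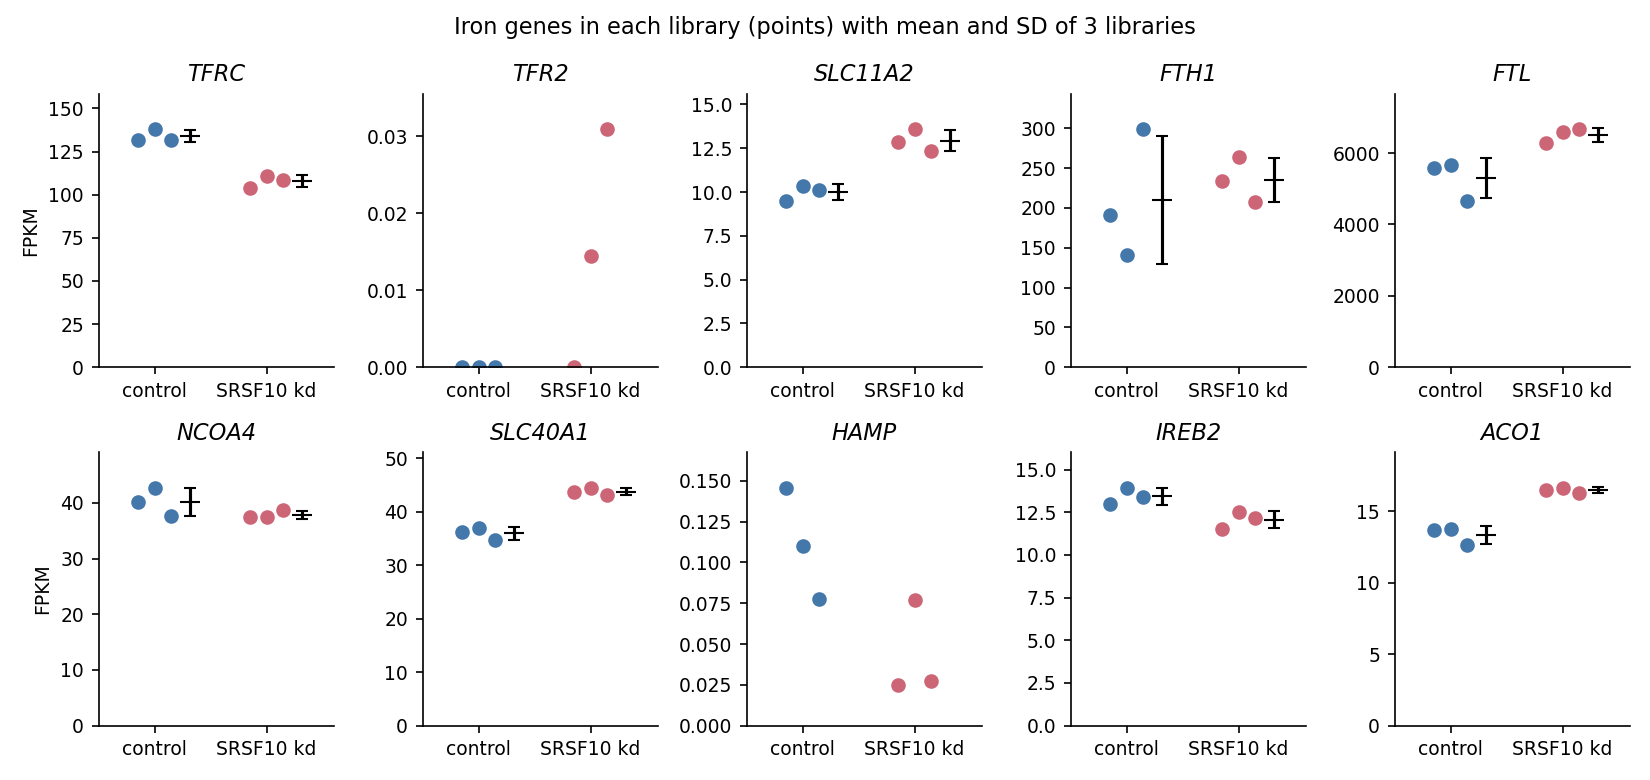
FPKM (vertical axes, each from 0) of the 10 iron genes in the 3 control libraries (blue) and the 3 knockdown libraries (red), with the mean and SD as a bar and whiskers except for TFR2 and HAMP. TFRC points sit at 104 to 111 FPKM in the knockdown, below all controls, and FTH1 ranges from 141 to 299 FPKM within the controls alone.

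Among the uptake genes TFRC and SLC11A2 moved in opposite directions. TFRC (ENSG00000072274, GRCh38 chromosome 3, 196027183 to 196082189, minus strand) encodes the transferrin receptor that brings transferrin-bound iron into most cells. It measured 132, 138 and 132 FPKM in control libraries and 104, 111 and 109 in knockdown libraries. All 3 knockdown values lay below the lowest control. The mean fell by 19.4%, from 133.9 ± 3.5 to 107.9 ± 3.7 FPKM (SD, n = 3 per group), which is -0.31 ± 0.038 in log2 units (SE, with a limma adjusted p of 0.00228). The call held in all 13 alternatives of filter, scaling, model and left-out library, with adjusted p from 0.000946 to 0.013.

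TFRC lies on chromosome 3, where 43.9% of 718 tested genes were called lower and 4.74% higher, beside 12.5% and 12.6% of all tested genes, and their median log2 fold change was -0.19. TFRC was lower than that median, yet 29.2% of the chromosome's tested genes had a still lower value. Among the 33 other tested genes within 1 Mb of TFRC, 10 fell and 2 rose, with a median log2 fold change of -0.13. The neighbour PCYT1A, an enzyme of phosphatidylcholine synthesis, fell by 0.26 on the log2 scale. PCYT1A was chosen after its values were seen. How much of the TFRC difference is shared with its chromosome was not tested. For the other 7 tested members the chromosome median was between -0.04 and 0.02.

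SLC11A2 (ENSG00000110911, chromosome 12, 50979401 to 51028566, minus strand) encodes DMT1, a divalent metal transporter that carries ferrous iron across membranes, including out of endosomes. The controls had 9.46, 10.3 and 10.1 FPKM and the knockdown 12.9, 13.6 and 12.4 FPKM. The lowest knockdown library was above the highest control. The mean was 29.7% higher, the largest relative rise among the 8 tested members, or 0.34 ± 0.051 in log2 units (SE, with a limma adjusted p of 0.00443). That call also held in all 13 alternatives. SLC11A2 makes mRNAs with and without an iron-responsive element, which a value per gene does not separate.

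TFR2 (ENSG00000106327, chromosome 7, 100620416 to 100642779, minus strand) encodes the second transferrin receptor, an iron sensor of hepatocytes. It was listed at 0 in all 3 controls and in knockdown replicate 1, and at 0.0145 and 0.0309 FPKM in knockdown replicates 2 and 3, which correspond to about 1 and 2 fragments. A count of 0 allows up to 3 fragments, or 0.0413 to 0.0467 FPKM per control library, for counting error only. TFR2 was therefore not detectable as different at this depth. A ratio of TFRC to TFR2 has no value where TFR2 is at 0.

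Of the storage genes FTL had by far the highest deposited level. FTL (ENSG00000087086, chromosome 19, 48965301 to 48966878, plus strand) encodes the light chain of ferritin, which helps form the iron core. It measured 5567, 5668 and 4659 FPKM in control libraries and 6285, 6587 and 6668 in knockdown libraries. Control replicate 3 was the lowest of the 6 libraries, and the groups did not overlap. FTL had the highest level of all genes not encoded in mitochondria in each of the 6 libraries, at 1.71% to 2.09% of all summed FPKM in the controls and 2.30% to 2.48% in the knockdown. The mean was 22.9% higher, at 5298 ± 556 against 6514 ± 202 FPKM (SD, n = 3 per group), which is 0.30 ± 0.082 in log2 units (SE, with a limma adjusted p of 0.0359). That call did not survive leaving out control replicate 1 (limma adjusted p = 0.058) or knockdown replicate 1, 2 or 3 (0.0643, 0.103 and 0.106), nor fitting with no filter on low values (0.597).

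FTH1 (ENSG00000167996, chromosome 11, 61959718 to 61967660, minus strand) encodes the ferritin heavy chain, which oxidises ferrous iron as it enters the shell. FTH1 measured 191, 141 and 299 FPKM in control libraries and 234, 263 and 208 in knockdown libraries. The control libraries spanned the whole range of the knockdown libraries. The log2 fold change was 0.22 with a 95% interval from -0.37 to 0.82 (limma adjusted p = 0.568), so no difference was detectable within this spread. Without control replicate 2, the lowest library, the log2 fold change was -0.03.

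The spread of FTH1 within the controls had no equal among well-covered genes. Its coefficient of variation reached 38.4% among controls and 11.8% among knockdown libraries, beside medians of 4.53% and 3.49% over 5230 genes with at least 500 estimated fragments. No other of these genes had so large a value in the controls. In the knockdown 60 genes, FTH1 included, were at or above its value. About 3637 to 8196 fragments lay behind each control value, for which counting error alone would give 1.10% to 1.66%. Control replicate 3 had the highest FTH1 and the lowest FTL, and control replicate 2 the lowest FTH1 and the highest FTL of the controls.

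**Figure D2:**
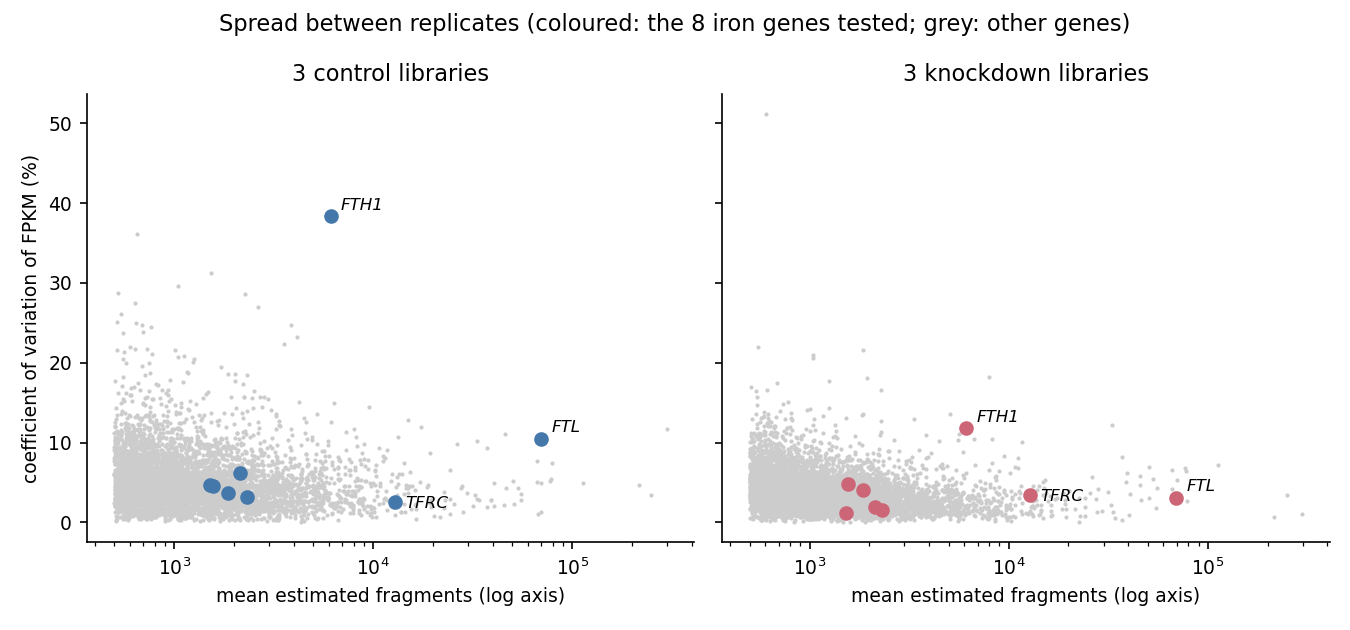
Coefficient of variation of FPKM between 3 replicates (percent, vertical axis) against the mean estimated fragments per library (log axis), in controls (left) and knockdown (right), for 5230 genes in grey and the 8 tested iron genes in colour. FTH1 stands at 38.4% in the controls, above all other genes plotted there, and at 11.8% in the knockdown.

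FTH1 and FTL each have many processed copies in the genome, and the handling of reads that fit several places is not given in the sources used here, so their levels are uncertain. Of 24 listed FTH1 copies 16 were above 0 in at least 1 library. They summed to 16.8 to 19.3 FPKM in control and 22.9 to 24.9 FPKM in knockdown libraries, or 5.61% to 13.1% of FTH1 itself. Copies of FTL summed to at most 0.193% of FTL. Exons of BEST1, on the opposite strand, cover 1267 of the 2030 exonic bases of FTH1. BEST1 was at 0.232 to 0.431 FPKM over the 6 libraries. The strand setting is not given either, and the part of copies and overlap in the level and the spread of FTH1 was not tested. The same limit holds for the ratio of FTH1 to FTL. The ratio of FTH1 to FTL was 0.0342, 0.0249 and 0.0641 in the controls and 0.0372, 0.04 and 0.0312 in the knockdown. The group means, 0.0411 and 0.0361, differed by less than the SD of the controls (exact two-sided permutation p = 0.9, where 3 against 3 cannot go below 0.1).

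NCOA4 (ENSG00000266412, chromosome 10, 46005088 to 46030714, minus strand) encodes the receptor that carries ferritin to lysosomes for breakdown. It measured 40.1, 42.7 and 37.7 FPKM in control libraries and 37.4, 37.5 and 38.7 in knockdown libraries. The groups overlapped, since knockdown replicate 3 was above control replicate 3. The log2 fold change was -0.08, with a 95% interval from -0.20 to 0.03 (limma adjusted p = 0.277).

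On the export side SLC40A1 rose and HAMP was close to absent. SLC40A1 (ENSG00000138449, chromosome 2, 189560579 to 189583758, minus strand) encodes ferroportin, which exports iron from cells. It measured 36.2, 36.9 and 34.7 FPKM in control libraries and 43.6, 44.5 and 43.2 in knockdown libraries. Every knockdown library was above every control. The mean was 21.8% higher, at 35.9 ± 1.1 against 43.7 ± 0.65 FPKM (SD, n = 3 per group), which is 0.28 ± 0.035 in log2 units (SE, with a limma adjusted p of 0.00265). The SLC40A1 call held in all 13 alternatives, with adjusted p from 0.00123 to 0.0155.

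HAMP (ENSG00000105697, chromosome 19, 35280716 to 35285143, plus strand) encodes hepcidin, the hormone that lowers ferroportin. It measured 0.146, 0.11 and 0.0774 FPKM in control libraries and 0.025, 0.077 and 0.0274 in knockdown libraries. These correspond to about 6, 4 and 3 fragments and about 1, 3 and 1 fragments. With 3 fragments or fewer behind each knockdown value, no fold change is given and a difference was not detectable at this depth.

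The 2 regulators had overlapping FPKM in the controls and separate FPKM in the knockdown. That order depends on the exonic lengths, 7555 bases for ACO1 and 10806 for IREB2. In estimated fragments IREB2 was above ACO1 in every control, at 1911 to 2010 against 1291 to 1488. In the knockdown the fragments were close, at 1673 to 1836 for IREB2 against 1566 to 1739 for ACO1. ACO1 (ENSG00000122729, chromosome 9, 32384603 to 32454769, plus strand) encodes a cytosolic aconitase that turns into an RNA-binding protein when it loses its iron-sulfur cluster. It measured 13.7, 13.8 and 12.6 FPKM in control libraries and 16.5, 16.7 and 16.3 in knockdown libraries. The knockdown libraries lay close together and above all controls. The mean was 23.3% higher, which is 0.28 ± 0.043 in log2 units (SE, with a limma adjusted p of 0.00483), and the call held in all 13 alternatives. IREB2 (ENSG00000136381, chromosome 15, 78437431 to 78501456, plus strand) encodes the second RNA-binding regulator, which is degraded when iron is plentiful. It measured 13.0, 13.9 and 13.4 FPKM in control libraries and 11.5, 12.5 and 12.2 in knockdown libraries.

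IREB2 values of the groups did not overlap, but the gene did not pass the threshold. Its log2 fold change was -0.14, with a 95% interval from -0.25 to -0.03 before adjustment (limma adjusted p = 0.0619). It passed with a filter of 5 FPKM (adjusted p = 0.0489) and with values rescaled without mitochondrially encoded genes (0.0482). The ratio of IREB2 to ACO1 was 0.945, 1.01 and 1.06 in the controls and 0.699, 0.752 and 0.747 in the knockdown. All knockdown ratios were lower than all control ratios, with means of 0.732 and 1.01 (two-sided exact permutation, p = 0.1, below which 3 against 3 cannot go).

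**Figure D3:**
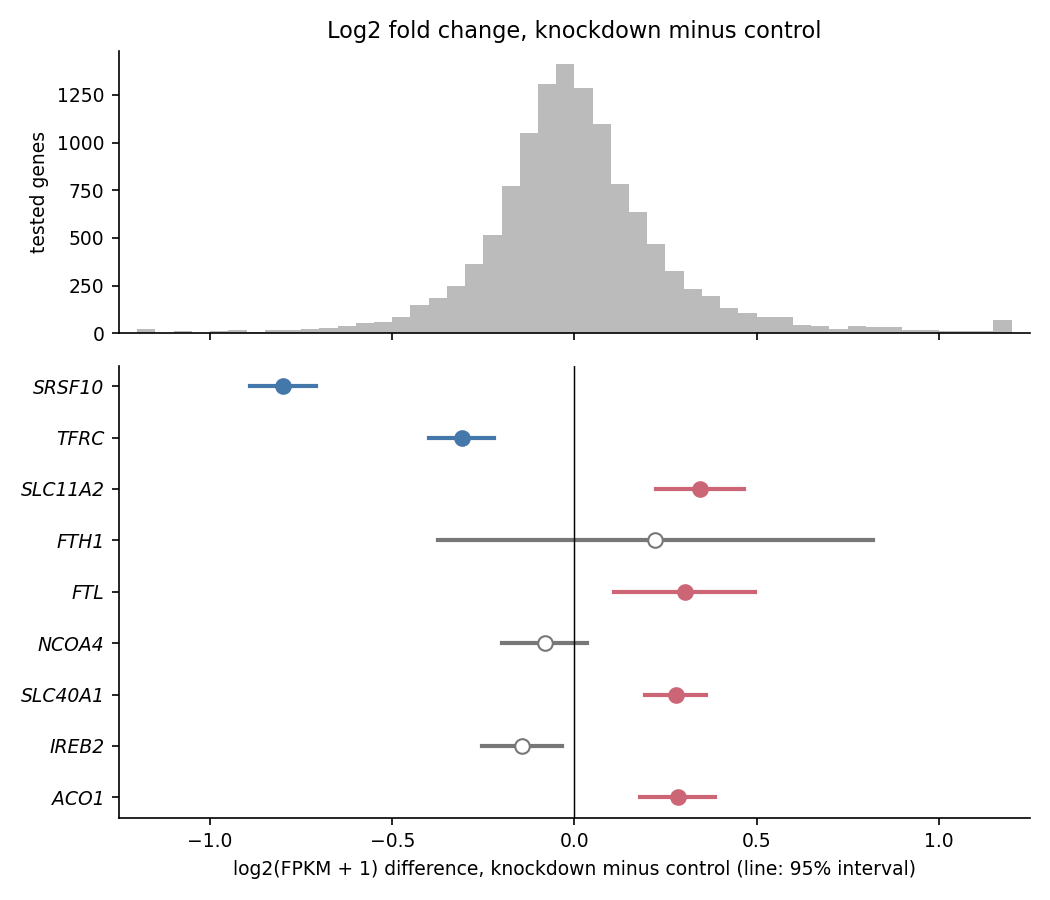
Top, numbers of the 12191 tested genes by log2 fold change, with values beyond ±1.2 placed in the end bars. Bottom, log2 fold change of SRSF10 and the 8 tested iron genes on log2(FPKM + 1), knockdown minus control, with 95% intervals, filled where the adjusted p was under 0.05. TFRC lies at -0.31 and FTL, SLC40A1, SLC11A2 and ACO1 lie between 0.28 and 0.34, and the FTH1 interval is the widest.

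By level in the controls the members ranked FTL, FTH1, TFRC, NCOA4, SLC40A1, IREB2 and ACO1, SLC11A2, HAMP and TFR2. IREB2 and ACO1 overlapped in the controls and did not overlap in the knockdown. NCOA4 and SLC40A1 exchanged places: every control had more NCOA4 than SLC40A1, and every knockdown library had more SLC40A1 than NCOA4. The lowest FTH1 value of the controls, 141 FPKM, was close to the highest TFRC value, 138 FPKM, whereas in the knockdown FTH1 was at least 208 FPKM and TFRC at most 111 FPKM. These orders are descriptions of levels per gene length, depend on the exonic length used for each gene, and were not tested.

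Other genes of iron handling were taken from 6 lists of 110 symbols, of which 84 were tested. Of these 8 rose and 13 fell, or 25.0% called, close to the 25.2% of all tested genes. The median log2 fold change over the 84 was -0.04. The other 26 genes did not pass the filter, and among them were transferrin itself (TF), the hepcidin regulators HJV and TMPRSS6, the ferroxidase HEPH and mitochondrial ferritin FTMT.

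In iron uptake and release 12 of 28 genes were tested, and 3 rose and 2 fell, with a median log2 fold change of 0.00. The called share was 41.7%, beside 25.2% of all tested genes. MELTF, a membrane protein of the transferrin family, measured 4.71, 4.40 and 4.33 FPKM in control libraries and 8.68, 8.98 and 9.33 in knockdown libraries (0.87 in log2 units, SE 0.049, with a limma adjusted p of 0.000236). It lies on chromosome 3 within 1 Mb of TFRC, so these neighbours changed in opposite directions. The antisense gene MELTF-AS1 also rose. It shares 296 of the 8393 exonic bases of MELTF, and reads in those shared bases cannot be told apart without a known strand setting. SLC39A8 and SLC39A14 encode zinc and iron importers of the ZIP family. SLC39A8 rose from 1.08 ± 0.089 to 2.09 ± 0.26 FPKM and SLC39A14 from 14.7 ± 1.01 to 18.7 ± 0.56 FPKM (SD, n = 3 per group). FLVCR1, first described as a heme exporter, fell from 13.2 ± 1.1 to 9.55 ± 0.38 FPKM. STEAP3, the reductase that prepares endosomal iron for SLC11A2, had a log2 fold change of 0.01 (limma adjusted p = 0.843) and was chosen after its values were seen.

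In iron chaperones, storage and mitochondrial import 10 of 12 genes were tested. Of these 10 genes 1 was called, a smaller share than the 25.2% of all tested genes. The gene that passed had a lower level. That was SLC25A28, one of the mitochondrial iron importers, at 7.30, 5.97 and 7.54 FPKM in control libraries and 5.23, 5.46 and 4.58 in knockdown libraries (log2 fold change -0.38, limma adjusted p = 0.0265). The call was lost in 6 of 13 alternatives, among them without control replicate 1 or 3 and without knockdown replicate 1 or 3 (adjusted p from 0.0616 to 0.0864 over the 6). Its paralogue SLC25A37 had a log2 fold change of 0.18 (limma adjusted p = 0.0525) and passed with a pseudocount of 0.1 (0.0498). HERC2, a ubiquitin ligase that acts on NCOA4, had a log2 fold change of -0.09 (adjusted p = 0.167). PCBP4, of the poly(C)-binding protein family, had a log2 fold change of -0.44 (limma adjusted p = 0.0506). PCBP4 lies on chromosome 3. It passed in 3 of 12 alternatives, among them without control replicate 2 (0.0213) and without knockdown replicate 1 (0.0434).

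In iron sensing and hepcidin control 21 of 23 genes were tested, and 2 rose and 4 fell, with a median log2 fold change of -0.07. The called share, 28.6%, was near the 25.2% of all tested genes. BMP6, ID1, ACVR1 and SMAD6 fell, and each is known from bone morphogenetic protein signalling. Other genes of that signalling in the list, BMP2, BMPR1A, BMPR2, ACVR2A, SMAD1, SMAD4, SMAD5 and SMAD7, did not pass, with log2 fold changes from -0.36 for SMAD7 to 0.19 for SMAD5. These 8 were chosen after their values were seen. The ligand BMP6 measured 13.7, 13.1 and 12.7 FPKM in control libraries and 10.6, 9.16 and 9.95 in knockdown libraries (log2 fold change -0.38, limma adjusted p = 0.00469). The target gene ID1 measured 149, 126 and 172 FPKM in control libraries and 78.1, 101 and 71.9 in knockdown libraries (log2 fold change -0.83, limma adjusted p = 0.00907). For both genes the groups did not overlap. The receptor ACVR1 fell from 14.7 ± 1.4 to 11.5 ± 0.41 FPKM, a call lost without knockdown replicate 3 (limma adjusted p = 0.0521), and the inhibitor SMAD6 was the other that fell. STAT3, which carries the interleukin 6 signal to the hepcidin gene, rose from 11.5 ± 0.68 to 13.8 ± 0.64 FPKM. That call was lost in 5 of 13 alternatives, among them without control replicate 1 or 2 and without knockdown replicate 1 or 3 (limma adjusted p from 0.0535 to 0.0676 over the 5). IL6R was the other gene that rose. SMAD6 and IL6R were chosen after their values were seen, to complete the counts.

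**Figure D4:**
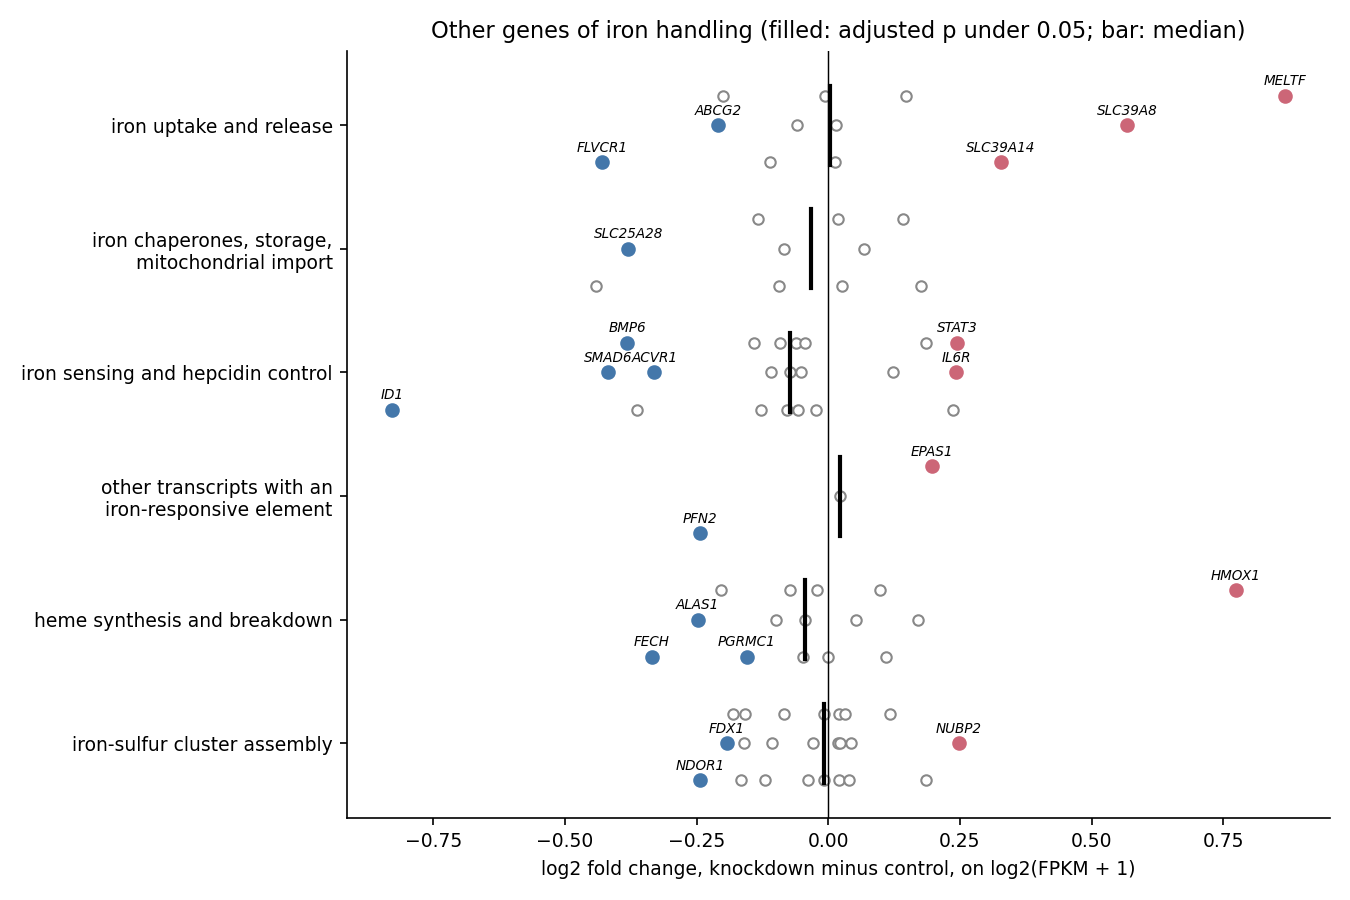
Log2 fold change of 84 tested genes in 6 lists of iron handling (horizontal axis, log2(FPKM + 1), knockdown minus control), filled and named where the adjusted p was under 0.05, with list medians as bars and the vertical position within a list carrying no value. MELTF at 0.87 and HMOX1 at 0.77 lie farthest to the right and ID1 at -0.83 farthest to the left, while all list medians lie between -0.07 and 0.02.

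Of 7 other transcripts with a known iron-responsive element 3 were tested, and 1 rose and 1 fell. The called share, 66.7%, rests on these 3 genes, beside 25.2% of all tested genes. EPAS1, which encodes hypoxia-inducible factor 2 alpha and carries the element in its 5′ untranslated region, rose from 24.3 ± 1.6 to 28.0 ± 0.69 FPKM (limma adjusted p = 0.0322). The call was lost in 8 of 13 alternatives, among them without control replicate 2 or 3 and without each knockdown library (adjusted p from 0.052 to 0.104 over the 8). PFN2, a profilin, fell from 64.6 ± 2.1 to 54.4 ± 2.1 FPKM (limma adjusted p = 0.00727) and lies on chromosome 3. CDC42BPA, a kinase that acts on the cytoskeleton, had a log2 fold change of 0.02 and did not pass.

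In heme synthesis and breakdown all 15 genes were tested, and 1 rose and 3 fell, or 26.7% called beside 25.2% of all tested genes. HMOX1, which breaks heme down and frees its iron, measured 98.0, 112 and 82.3 FPKM in control libraries and 159, 171 and 167 in knockdown libraries (0.77 in log2 units, SE 0.102, with a limma adjusted p of 0.00301). The lowest knockdown library was far above the highest control. ALAS1, the first enzyme of heme synthesis, measured 46.1, 46.6 and 46.1 FPKM in control libraries and 38.6, 38.7 and 39.2 in knockdown libraries (-0.25 in log2 units, SE 0.028, with a limma adjusted p of 0.00177). It lies on chromosome 3. FECH, which inserts iron into the heme ring, fell from 4.71 ± 0.39 to 3.53 ± 0.14 FPKM. PGRMC1, a heme-binding membrane protein, fell from 78.4 ± 0.49 to 70.4 ± 2.9 FPKM. Its call was lost in 7 of 13 alternatives, among them without control replicate 1 or 2 and without knockdown replicate 1 or 3 (limma adjusted p from 0.0526 to 0.0879 over the 7).

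In iron-sulfur cluster assembly 23 of 25 genes were tested, and 1 rose and 2 fell, or 13.0% called beside 25.2% of all tested genes. NUBP2, of the cytosolic assembly scaffold, rose from 3.28 ± 0.18 to 4.09 ± 0.33 FPKM, while its partner NUBP1 had a log2 fold change of -0.16 (limma adjusted p = 0.11). The electron donor FDX1 fell from 7.32 ± 0.28 to 6.28 ± 0.22 FPKM and the reductase NDOR1 from 7.99 ± 0.58 to 6.59 ± 0.26 FPKM. All 3 calls were lost in several alternatives. NUBP2 was lost in 7 of 12, among them without each control library and without knockdown replicate 2 or 3. FDX1 was lost in 6 of 13, among them without control replicate 1 or 2 and without knockdown replicate 1 or 2. NDOR1 was lost in 6 of 13, among them without control replicate 1 and without each knockdown library. Their limma adjusted p ran from 0.0511 to 0.114 where they were lost.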

How the data were processed

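Expression was measured by RNA-seq in 3 control and 3 knockdown libraries of cells labelled Huh7. What the authors deposited is FPKM, so each value is already corrected for the length of the gene and the size of the library. The submitters' processing notes list FastQC 0.11.9, Trim Galore 0.6.5-1 and the build GRCh38. No aligner, counting program, annotation release or strand setting is named in the sources used here. Since FPKM are not counts, limma 3.58.1 (R 4.3.3) was fitted to log2(FPKM + 1) with a mean-variance trend and 1 group term. P-values were adjusted by Benjamini-Hochberg over 12191 genes with at least 1 FPKM in at least 3 libraries. Mitochondrially encoded genes took 27.5% to 29.7% of the summed FPKM, which is a share of length-scaled values and not of fragments. All values are relative to the mapped total of their library.

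The members, lists and tests were chosen with earlier results of these data known, and 1 gene of a list is not reported here. Named are the 10 members, SRSF10 and, per list, up to 4 tested genes with the smallest adjusted p, plus 1 of the other direction where these all go one way and it passes. Depth was taken as the smallest fragment total for which low FPKM times the exon length in GENCODE 29 came out whole, within 0.05 for 81.7% to 83.1% of values of up to 6.5 fragments. The 95% intervals come from limma and the spread between libraries, whereas floors cover counting error only. The fit was also run on simulated data with the same small spread for all genes, below the control spread of FTH1 and FTL. That run does not show how the fit behaves for genes with such a spread. Depth, motif search and plots were done in Python 3.11.15 with NumPy 2.4.6 and matplotlib 3.10.9. Alternatives were filters of 0 and 5 FPKM, another pseudocount (0.1), replicate blocks, median-of-ratios scaling, rescaling without mitochondrially encoded genes, a fit without the trend, and each library left out.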

Additional observations from a re-analysis of the deposited data

How the results depend on the processing

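TFRC, SLC11A2, SLC40A1, ACO1 and SRSF10 kept their direction and their call in all 13 alternatives tried, and FTL kept its direction in all 13 and its call in 7. Over the 6 fits that leave out 1 library, the genes called higher among all tested numbered 894 to 1352 and those called lower 964 to 1327, with fewer samples and fewer genes tested, against 1542 and 1525. With no filter on low values 1013 genes were called lower. With a filter of 5 FPKM, and with values rescaled without mitochondrially encoded genes, 2 iron genes were called lower, TFRC and IREB2, and the cause was not tested. Among all tested genes 1319 of 6824 were called lower with the filter of 5 FPKM. With the values rescaled without mitochondrially encoded genes, 1555 of 12151 were. The direction reversed for FTH1 without control replicate 2 (log2 fold change -0.028) and for CDC42BPA without control replicate 1 (-0.016). Over the fits without 1 library the highest values were 0.51 for FTH1 and 0.047 for CDC42BPA. Neither gene passed in any setting. Over all 32 named genes, 352 of 412 values kept direction and side of the threshold, 52 lost the call and 6 gained it. Replicate numbers do not pair the libraries: deviations of libraries with the same number correlated at 0.016, 0.057 and -0.071. With the replicate number as a block 1193 genes were higher and 1146 lower, 3 iron genes were higher and 1 lower, FTL had an adjusted p of 0.0612 and PCBP4, which passed there, one of 0.0201 (limma). The ratio of TFRC to TFR2 was not run because TFR2 is listed at 0. Depth limits HAMP and TFR2, which rest on at most about 6 fragments per library.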
